A study of Rattus norvegicus with 65 samples.

Results

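The mammalian genes whose symbols begin with Kcn encode potassium channels, their auxiliary subunits and a few related regulators. In the count table of rat hypothalamus, 94 protein-coding rows of 22926 had such a symbol, out of 38513 rows in all, and all 94 were taken without regard to their measured values. They fell into 21 subfamilies by the letters after Kcn. The filter on low counts (about 10 counts in enough libraries for the size of the smallest group) was passed by 88 of the 94. The other 6 were Kcna7, Kcna10, Kcne1, Kcnk18, Kcnmb3 and Kcnu1, and they entered no test.

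Hypothalami came from 65 male Wistar rats, 1 library per animal, so the spread between libraries of a group is a spread between animals. The rats were 9 to 10 weeks old at the start and those of the 7 intervention and control groups were made obese on high-fat food for 6 weeks, after which 14 animals had a Roux-en-Y gastric bypass (RYGB) and 11 a sham operation. A further 7 sham-operated animals were body-weight-matched (BWM): their food was limited to what RYGB-treated rats ate, so that their weight would run alike. By the study's account BWM animals were nevertheless heavier than RYGB-treated animals at the end of the observation period. Among the others, 5 animals got liraglutide under the skin at 0.4 mg/kg/day, 4 got PYY3-36 from an osmotic minipump at 0.1 mg/kg/day, 10 got both drugs, and 8 got saline by both routes. Brains were collected 4 weeks later, following 10 h without food. All of these groups but BWM could choose between high-fat and low-fat food during those weeks. The last 6 animals carried only the label lean. The study's text also names a group on low-fat diet only, but no source used here ties that group to this label. The animals belonged to 2 experimental periods, called batch A and batch B. RYGB (11 in A, 3 in B), sham (5 and 6), saline (3 and 5) and PYY3-36 + liraglutide (5 and 5) were split over both, BWM and lean were in A only, and liraglutide and PYY3-36 in B only.

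Potassium channels let potassium ions leave the cell and so set the resting potential of neurons, end each action potential and limit repetitive firing. Voltage-gated families (Kcna to Kcnd, Kcnh, Kcnq) open on depolarisation, inward rectifiers (Kcnj) and tandem-pore background channels (Kcnk) carry current at rest, and calcium-activated and sodium-activated families (Kcnma, Kcnn, Kcnt) respond to ions that enter during firing. In the hypothalamus, ATP-sensitive channels made of Kcnj11 with the sulfonylurea receptor Abcc8 couple glucose metabolism to the firing of feeding neurons, and in astrocytes Kcnj10 clears potassium from the extracellular space.

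The libraries held between 20041010 and 36539941 counts on genes, with a median of 29571658 in batch A and 23386048 in batch B. At that depth, 0 counts of a gene allow a level of up to 0.0821 to 0.150 CPM (counts scaled to 1e+06 per library), depending on the library and for counting error only. The label hypothalamus was checked with 15 marker genes, by the mean of log2(CPM + 1) over the list. The score was under 3 in 13 libraries, and the lowest of the other 52 had 3.16. In the 13 libraries the neuropeptide gene Avp had a median of 2.43 CPM, against 340 CPM in the other 52, and Hcrt, the orexin gene of the lateral hypothalamus, had 0.247 CPM against 79.3 CPM. The developmental regulators Otp and Sim1 were each under 1 CPM in 9 of the 13 and in 0 of the 52. The 13 libraries were 4 of 11 sham (replicates 1, 2, 6 and 10), 2 of 6 lean (2 and 5), 2 of 8 saline (3 and 4), 2 of 5 liraglutide (3 and 4), 1 of 7 BWM (1), 1 of 4 PYY3-36 (2), 1 of 10 PYY3-36 + liraglutide (8) and 0 of 14 RYGB. Among the 15 markers Npy went the other way, with a median of 29.4 CPM in the 13 libraries and 13.9 CPM in the 52, and Crh differed little (4.51 and 5.71 CPM). The 13 libraries went against their tissue label in Avp, Hcrt, Otp and Sim1 but not in Npy. These genes are on the list by which the 13 were chosen, so low levels were partly fixed by that choice. Results are given with and without the 13. The libraries were also scored for ribosomal protein transcripts, with a median score of 7.68 after RYGB and 8.17 in sham-treated animals (4 of the 16 genes were called lower), and comparisons with sham or BWM are also given with this score as a covariate.

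Together, the 94 genes took between 0.188% and 0.428% of the counts of a library. Levels of different genes were compared per length, as CPM per kb of exon. On that scale 85 members had a mean of at least 0.1, 68 of at least 1, 20 of at least 10 and 5 of at least 20. The highest mean level was that of Kcnab2 (46.1 ± 21.1 CPM per kb, SD, n = 65), a cytoplasmic beta subunit of Kcna channels. Among the next members, Kcna6, a delayed rectifier of axons, had 28.5 ± 6.72 CPM per kb, Kcnmb4, the neuronal beta subunit of the large-conductance calcium-activated channel, 26.0 ± 12.96, and Kcnc1, a channel of fast-spiking neurons, 22.9 ± 6.02 (SD, n = 65 each). These 3 genes lay within their spread of each other. The first 5 genes held 26.5% of the summed level per length of all members, and the first 10 held 42.5%.

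**Figure D1:**
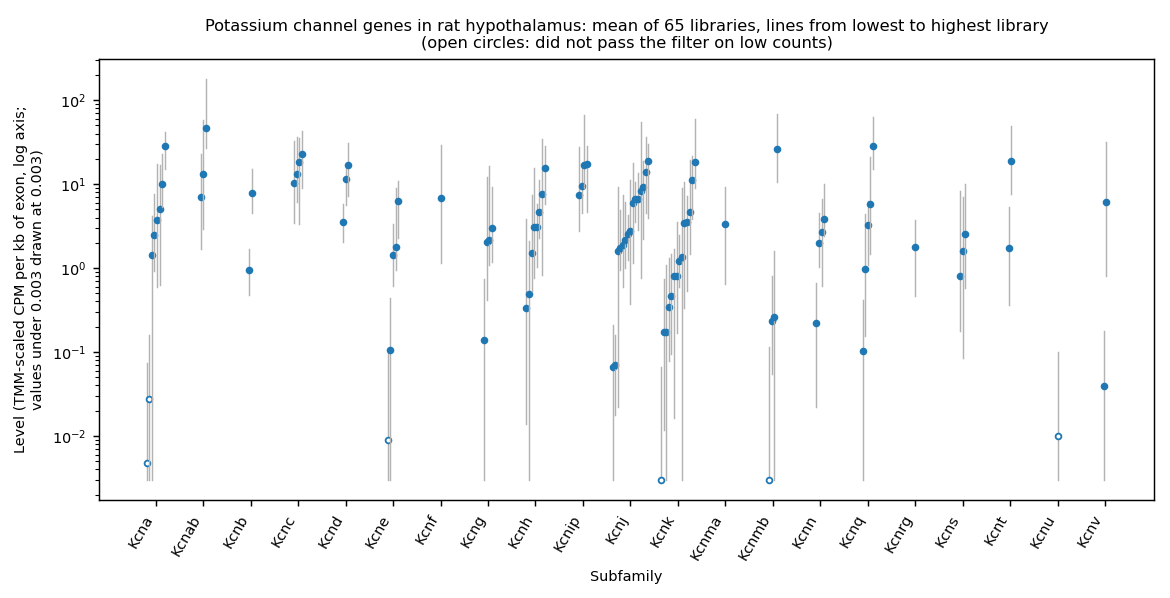
Level of each of the 94 potassium channel genes in TMM-scaled CPM per kb of exon (log axis), sorted within subfamily; points are means over 65 libraries, lines run from the lowest to the highest library and open circles did not pass the filter. Kcnab2 stands highest with 46.1 CPM per kb, and subfamilies such as Kcna, Kcnj and Kcnk span several orders of magnitude.

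Summed over members, the inward rectifiers Kcnj were the largest subfamily at 82.2 CPM per kb (14.3% of the total, 15 genes). Its highest member was Kcnj16 with 18.6 CPM per kb, which pairs with Kcnj10 in glia. Kcnab (66.4 CPM per kb over 3 genes) and Kcnc (65.2 over 4) came next, followed by Kcna (51.4 over 8) and the calcium-binding Kcnip proteins that assist Kcnd channels (51.3 over 4). The tandem-pore family Kcnk summed to 46.8 CPM per kb over 14 genes, led by Kcnk1 with 18.6. Kcnq (38.9), Kcnh (36.4, led by Kcnh2 with 15.7), Kcnd (31.8, led by Kcnd2 with 16.9), Kcnmb (26.5) and Kcnt (20.7, led by the sodium-activated channel Kcnt1 with 18.9) were intermediate on this scale. The electrically silent subunits, which form no channel alone and modify Kcnb channels, were lower: Kcnf1 had 6.80 CPM per kb, Kcnv1 6.14, Kcng4 2.999 and Kcns3 2.53. Kcnma1, the pore of the large-conductance calcium-activated channel, had 3.39 CPM per kb and Kcnn2, a small-conductance channel, had 3.84. Kcne5, a small accessory subunit, had 6.30 CPM per kb, and Kcnrg, a regulator of channel assembly, 1.76. Kcnu1 stayed at 0.00988 CPM per kb.

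How much a gene varied from animal to animal differed strongly among members. Kcnd3, a carrier of the transient A-type current, was the most even with a coefficient of variation of 19.7% over the 65 libraries, and Kcna6 had 23.5%. At the other end, the highest library lay 17.0 times above the median for the silent subunit Kcns1 (RYGB replicate 6), 16.9 times for Kcnh8 (BWM replicate 5) and 11.3 times for the inward rectifier Kcnj4 (BWM replicate 1). In all, 52 of the 88 tested members were over 3 times their median in at least 1 library. The highest values were gathered in few libraries: 5 of the 65 held the highest value of 51 of the 88 members, and 39 libraries held none. These 5 were BWM replicate 1 (15 members), RYGB replicate 6 (14), sham replicate 1 (9), sham replicate 2 (8) and saline replicate 4 (5). BWM replicate 1 also ranked first of 65 for the striatum marker list and RYGB replicate 6 first for the cortex list, and 4 of the 5 (all but RYGB replicate 6) were among the 13 libraries low in hypothalamus markers. The part of these 5 libraries in the members' spread was not tested. The same counts were not made over all genes, so they show no trait particular to these members.

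**Figure D2:**
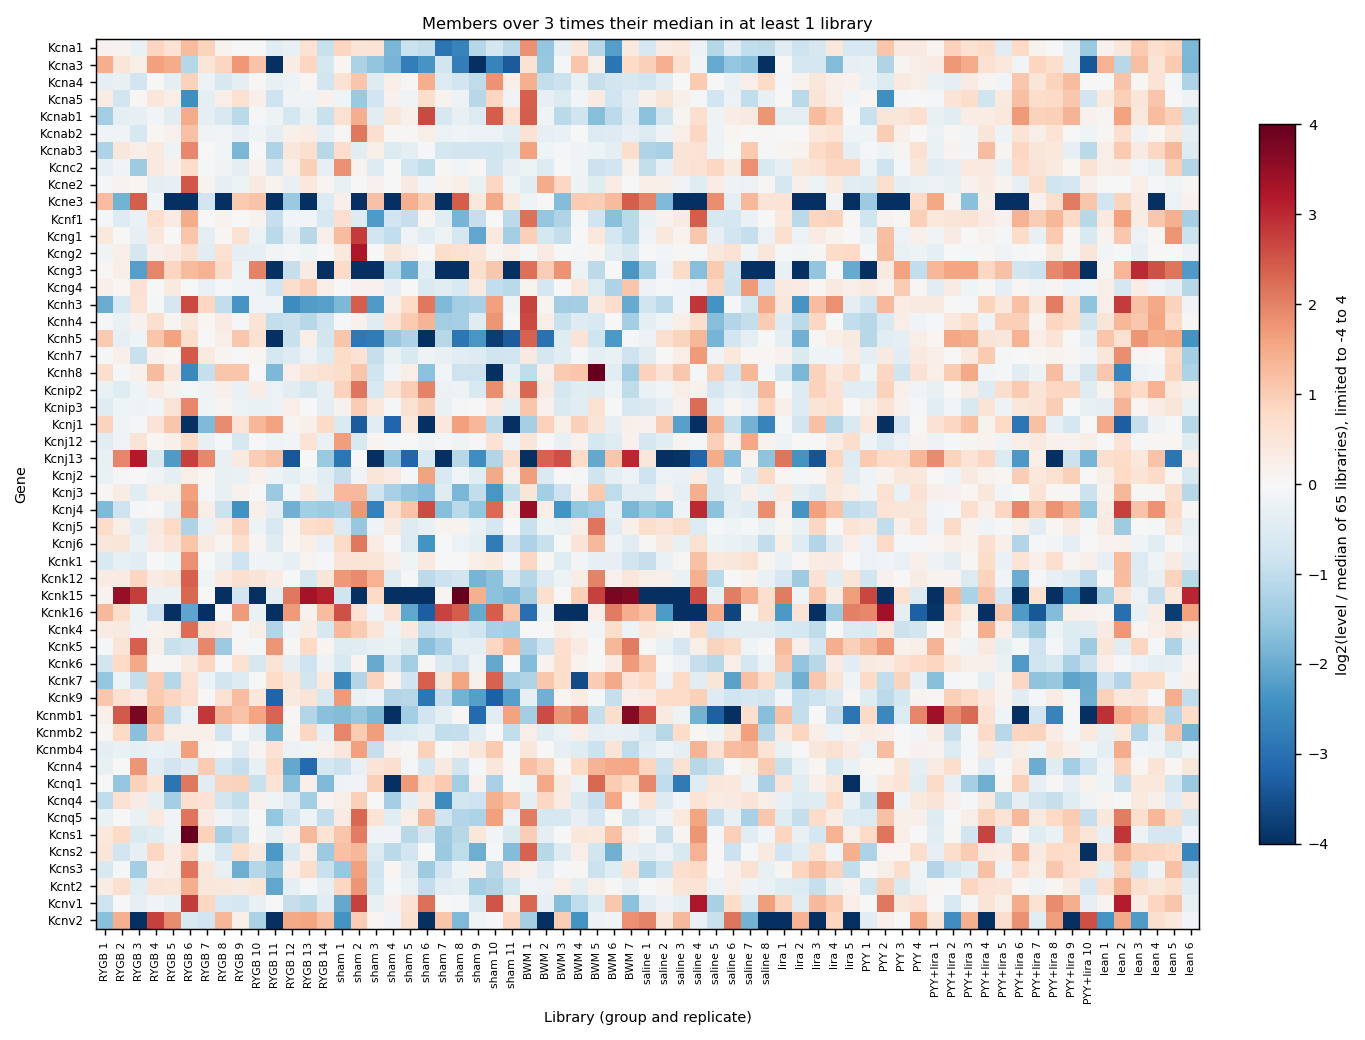
Level of the 52 members that exceeded 3 times their median in at least 1 library, as log2 of the level over the gene's median across 65 libraries (colour, limited to -4 to 4), with libraries in columns by group and replicate. Red columns show many members high in the same library, with most over 3 times their median in RYGB 6 (18), BWM 1 (15), sham 2 (14), sham 10 (10), lean 2 (9) and saline 4 (8).

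Across libraries, each member was set beside 14 marker lists. The list with the highest Spearman correlation was striatum for 23 members (median rho 0.58), neuron for 16 (median 0.62) and cortex for 15 (median 0.39). These are descriptions over 65 libraries that share animals, depth and dissection between gene and list. Kcnip2 followed the striatum list at rho = 0.84, Kcnj13, the inward rectifier of choroid plexus epithelium, the meninges list at 0.79, and Kcnj8, the vascular ATP-sensitive subunit, the endothelium list at 0.64. The glial rectifiers Kcnj10 and Kcnj16 were highest with the astrocyte list, at 0.52 and 0.56.

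The comparison of RYGB with sham asks which transcripts the operation changes beyond anaesthesia and laparotomy. Of the 88 members, 6 were higher and 2 lower after RYGB at a Benjamini-Hochberg adjusted p under 0.05 (edgeR quasi-likelihood test with group and batch, over 21871 genes). That is 9.09% of the members, while 13% of all genes tested passed, 6.52% higher and 6.53% lower, so the members were called no more often than genes in general. At an unadjusted p under 0.05 stood 21 members, 23.9%, against 30% of all genes. The median log2 fold change of the members was 0.14 and that of all genes -0.02. The higher members were the glial rectifier Kcnj10, the background channels Kcnk3 and Kcnk9 and the voltage-gated Kcna3, Kcnh5 and Kcnq3, between 1.65 and 4.40 times the sham level. The lower members were the silent subunit Kcng2 and the accessory subunit Kcnip2, which were 2.04 and 2.12 times lower. With saline-treated animals as the control in place of sham, none of the 8 passed. Without the 13 libraries low in hypothalamus markers, 6 of the 8 were called, and 6 further members were.

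Kcnj10 (chromosome 13, 90722945 to 90753338, plus strand, Rnor_6.0) carries the potassium uptake of astrocytes. After RYGB its level was 20.2 CPM at the lowest, 55.0 at the median and 74.5 at the highest, and in sham-treated animals 13.5, 19.4 and 45.9 CPM. All 14 RYGB-treated animals were above the sham median and 8 were above the highest sham-treated animal, so the groups overlapped in part. This was a log2 fold change of 1.22 (SE 0.25, 95% interval 0.74 to 1.71, adjusted p = 0.00192). Of 10 astrocyte markers 1 was called higher, with a list median of 0.25 on the log2 scale and scores of 8.09 to 8.69 after RYGB and 7.90 to 8.60 after sham. The part of astrocyte RNA in the Kcnj10 difference was not tested, and in whole tissue, more cells of a type and more RNA per cell cannot be told apart.

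Kcnk3 and Kcnk9 are related background channels that acid and Gq-coupled receptors close. Kcnk3 (chromosome 6, 27154274 to 27190209, minus strand) had 2.32, 9.97 and 14.9 CPM (lowest, median and highest) after RYGB and 1.09, 4.15 and 9.41 CPM after sham. Its log2 fold change was 0.97 (SE 0.26, adjusted p = 0.0122), with 9 of 14 RYGB-treated animals above every sham-treated animal. Kcnk9 (chromosome 7, 113894918 to 113938397, minus strand) had 1.99, 26.9 and 43.3 CPM after RYGB and 1.92, 8.08 and 60.02 CPM after sham. Here 13 of 14 RYGB-treated animals were above the sham median but none was above the highest sham library, which was replicate 1. For Kcnk9 the log2 fold change was 1.04 (SE 0.33, adjusted p = 0.0297).

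Of the voltage-gated members, Kcna3, a delayed rectifier known from immune cells and some neurons, had the largest difference. Kcna3 (chromosome 2, 209766767 to 209768344, plus strand) was low throughout, with 0.124, 3.16 and 6.49 CPM after RYGB and 0.0483, 0.384 and 2.08 CPM after sham. Its log2 fold change was 2.14 (SE 0.48, adjusted p = 0.00357), and 11 of 14 RYGB-treated animals exceeded every sham-treated animal. Kcnh5 (chromosome 6, 97872831 to 98157087, minus strand), an ether-a-go-go channel of neurons, had 0, 1.74 and 4.45 CPM after RYGB and 0, 0.210 and 3.15 CPM after sham. Kcnh5 was thus fitted at 3.03 times the sham level (95% interval of the log2 fold change 0.62 to 2.58, adjusted p = 0.0265), with 13 of 14 animals above the sham median and 1 above the highest. The sham median of Kcnh5 was near the 0.0821 to 0.150 CPM that 0 counts allow. Kcnq3 (chromosome 7, 106714479 to 107009639, minus strand) is a subunit of the M-current, which restrains repetitive firing. It had 10.4, 23.6 and 31.3 CPM after RYGB and 6.25, 8.79 and 29.7 CPM after sham, a log2 fold change of 0.73 (SE 0.25, adjusted p = 0.0419).

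The lower members were both modulators of other subunits. Kcng2 (chromosome 18, 76808294 to 76880742, minus strand) changes the gating of Kcnb channels. It had 7.55, 11.3 and 18.7 CPM after RYGB and 12.1, 15.9 and 115 CPM after sham, and 9 of 14 RYGB-treated animals were below every sham-treated animal. On the log2 scale Kcng2 was fitted at -1.03 (SE 0.23, adjusted p = 0.00368), and without sham replicate 2, which had the 115 CPM, it was -0.28 (adjusted p = 0.233). Kcnip2 (chromosome 1, 265549610 to 265573393, minus strand) binds Kcnd channels and slows their inactivation. It had 24.7, 33.1 and 47.5 CPM after RYGB and 25.1, 54.3 and 169 CPM after sham, with all 14 RYGB-treated animals below the sham median. On the log2 scale Kcnip2 was fitted at -1.08 (SE 0.30, adjusted p = 0.0157), and without sham replicate 2 it was -0.82 (adjusted p = 0.0781). Of 10 striatum markers 2 were called lower after RYGB, with a list median of -1.07 and a summed level of 427 to 832 CPM after RYGB and 359 to 5776 CPM after sham.

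**Figure D3:**
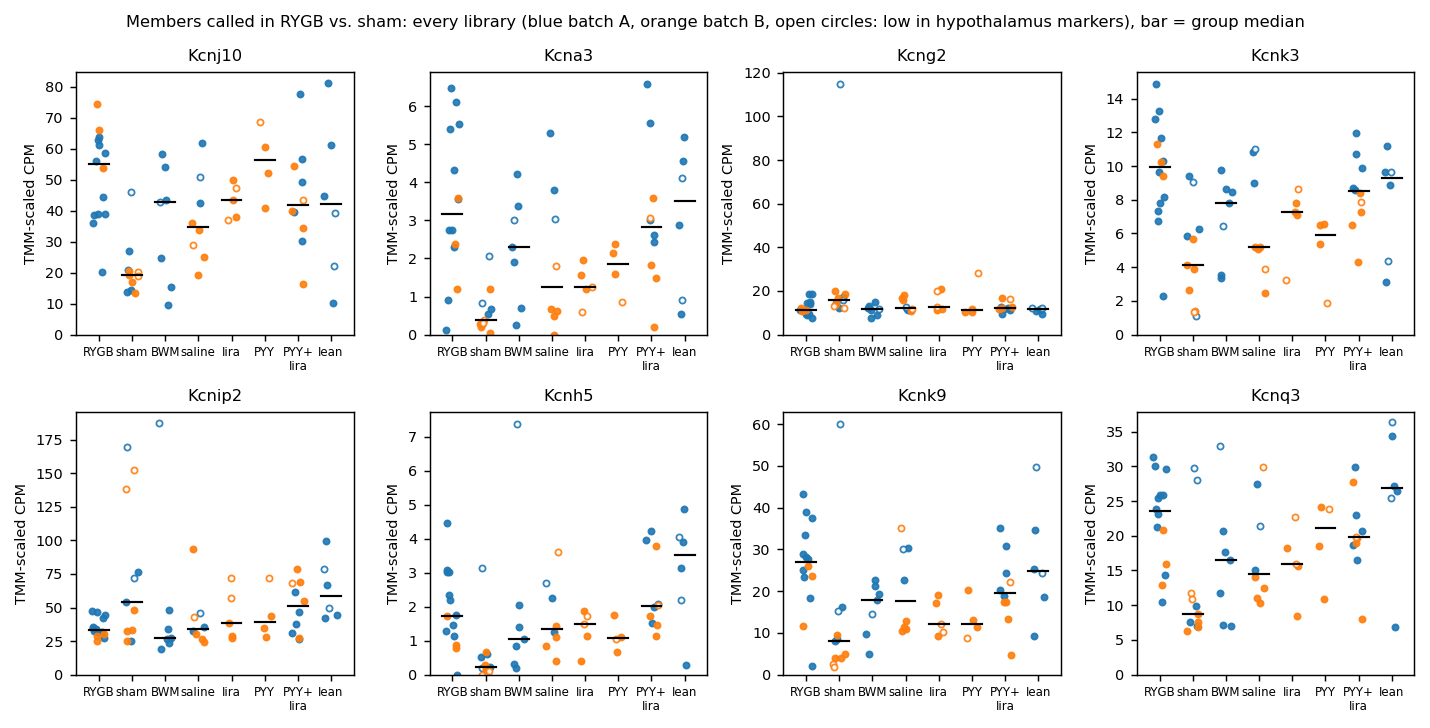
Level in TMM-scaled CPM of the 8 members called in RYGB vs. sham, in every library of the 8 groups (blue batch A, orange batch B, open circles low in hypothalamus markers, bar at the group median). The sham medians of the 6 higher members are the lowest of the 8 groups, 1 sham library at 115 CPM stands far above all others for Kcng2, and the highest Kcnip2 libraries are BWM replicate 1 (187 CPM) and sham replicates 2, 6 and 10 (138 to 169 CPM).

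The promoters of these members are shown because genes that were called together can be compared for letters they share. RefSeq promoters on the build GRCr8 were given for 63 of the 94 members, among them 5 of the 8. The 250 bases before the annotated start of each are printed 5′ to 3′ on the gene's strand, with 2 motifs in capitals: the GC box (GGGCGG, or CCGCCC on the other strand) and the CCAAT box (CCAAT, or ATTGG on the other strand). They are Kcnj10 at chr13:87334260-87334509 (plus strand), Kcna3 at chr2:197320074-197320323 (plus), Kcnh5 at chr6:99643857-99644106 (minus), Kcng2 at chr18:76083689-76083938 (minus) and Kcnip2 at chr1:254613899-254614148 (minus). These coordinates belong to another build than the gene positions given above. Kcnk3, Kcnk9 and Kcnq3 are named only.
Kcnj10: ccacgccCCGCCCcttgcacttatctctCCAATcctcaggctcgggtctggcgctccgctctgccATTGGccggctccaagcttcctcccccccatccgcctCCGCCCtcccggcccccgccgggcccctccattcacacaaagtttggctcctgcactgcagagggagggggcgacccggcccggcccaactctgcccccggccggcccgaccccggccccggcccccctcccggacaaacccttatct
Kcna3: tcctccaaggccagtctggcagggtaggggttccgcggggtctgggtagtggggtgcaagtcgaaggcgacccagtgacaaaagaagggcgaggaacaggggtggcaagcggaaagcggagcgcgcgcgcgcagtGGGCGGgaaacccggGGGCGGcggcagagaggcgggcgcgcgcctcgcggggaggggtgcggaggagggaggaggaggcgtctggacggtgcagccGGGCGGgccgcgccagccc
Kcnh5: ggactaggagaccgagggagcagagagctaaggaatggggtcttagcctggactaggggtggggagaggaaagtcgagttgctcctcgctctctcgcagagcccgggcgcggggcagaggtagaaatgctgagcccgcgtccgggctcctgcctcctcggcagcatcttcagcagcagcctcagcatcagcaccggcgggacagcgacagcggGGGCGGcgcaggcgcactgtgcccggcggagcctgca
Kcng2: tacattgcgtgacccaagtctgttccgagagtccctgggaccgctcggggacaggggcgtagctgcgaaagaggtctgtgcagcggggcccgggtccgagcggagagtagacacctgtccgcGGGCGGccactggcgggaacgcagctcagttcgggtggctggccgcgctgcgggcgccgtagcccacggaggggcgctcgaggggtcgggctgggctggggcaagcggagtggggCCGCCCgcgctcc
Kcnip2: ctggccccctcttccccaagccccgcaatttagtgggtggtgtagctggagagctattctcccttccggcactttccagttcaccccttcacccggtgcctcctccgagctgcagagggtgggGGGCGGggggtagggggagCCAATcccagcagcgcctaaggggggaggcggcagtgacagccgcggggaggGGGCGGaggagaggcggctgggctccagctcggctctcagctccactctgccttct

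At least 1 GC box stood in each of the 5 stretches, and Kcna3 held 3. Over the full window of 300 bases, which adds 50 after the start, a GC box was found in 49.2% of the 63 member promoters and in 34.9% of all 27456 promoters. A CCAAT box was found in 23.8% of member promoters and 37.7% of all, among the 5 stretches only in those of Kcnj10 and Kcnip2. A TATA box (TATAAA, both strands) was found in 3.17% of member promoters and 14.3% of all. The median GC content was 61% in member promoters and 52.3% in all promoters. A match is a description of letters, and no test was made of these shares.

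The calls changed with the libraries that were low in hypothalamus markers. With the 13 left out, a choice made after the data were seen, 12 members were higher after RYGB and 0 lower. That is 13.6% of the members, against 7.47% of 21942 genes called higher and 11.8% called in either direction. All 6 higher members were still called, with log2 fold changes of 1.46 for Kcnj10, 2.42 for Kcna3, 0.73 for Kcnk3, 1.51 for Kcnk9, 2.09 for Kcnh5 and 1.36 for Kcnq3. Kcng2 (-0.33, adjusted p = 0.136) and Kcnip2 (-0.27, adjusted p = 0.474) no longer passed. In sham-treated animals Kcnip2 ran from 72.3 to 169 CPM in the 4 libraries low in hypothalamus markers and from 25.1 to 76.2 CPM in the other 7.

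Higher after RYGB and called without these libraries, but not with them, were 6 further members, of which 5 are described. Of the subunits of G protein-gated rectifiers, through which opioid and GABA receptors silence neurons, Kcnj3 had a log2 fold change of 1.19 (adjusted p = 0.00646) and Kcnj9 of 0.82 (adjusted p = 0.00813). The calcium-activated channel Kcnma1 had 1.10 (adjusted p = 0.00672) and the silent subunit Kcnf1 had 1.16 (adjusted p = 0.0143). Kcna1, an axonal delayed rectifier, had 1.14 (adjusted p = 0.0314). Leaving out instead the 9 libraries highest in cortex, striatum or thalamus markers also gave 12 higher and 0 lower members. Of 21664 genes, 14.4% were called in either direction and 8.38% higher. Of the 12 members, 11 were shared between both settings. In that setting Kcnk3 did not pass (0.75, adjusted p = 0.0518) and Kcnn3, a small-conductance calcium-activated channel, did (0.64, adjusted p = 0.031). Called in all 3 settings were Kcnj10, Kcna3, Kcnh5, Kcnk9 and Kcnq3.

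The higher members moved with the ribosomal protein score. Over the 65 libraries, their Spearman correlations with the score ran from -0.89 to -0.71, and all 6 were among the 10 lowest of the 88 members, whose median was -0.24. Kcng2 and Kcnip2 had 0.30 and -0.03. The score ran from 7.39 to 8.73 after RYGB and from 7.47 to 8.60 after sham, and in batch B the 3 RYGB libraries (7.74 to 7.90) were all below the 6 sham libraries (8.05 to 8.60). With the score as a covariate, added after the data were seen, 1 member was called (Kcng2, -1.08, adjusted p = 0.0302), against 0.421% of all genes. The log2 fold change was then 0.65 for Kcnj10 (adjusted p = 0.0789), 0.81 for Kcna3 (0.218), 0.57 for Kcnh5 (0.445), 0.32 for Kcnk3 (0.448), 0.25 for Kcnk9 (0.491) and 0.25 for Kcnq3 (0.513). A change in ribosomal protein transcripts through the operation and a difference between libraries cannot be told apart here.

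Within batch A, 2 members were called (2.43% of genes), Kcng2 and Kcnmb1 (log2 fold change 3.93, adjusted p = 0.0271). Of the 8 members called over both batches, the others did not pass there, with adjusted p from 0.0635 for Kcna3 to 0.641 for Kcnk9. Within batch B, with 3 RYGB-treated and 6 sham-treated animals, 10 of 86 were called (11.8% of genes). These included Kcnj10, Kcna3, Kcnk3, Kcnk9 and Kcnh5, but not Kcnq3 (adjusted p = 0.0687), Kcng2 or Kcnip2. All 8 members had the same direction in both batches. They were called from a fit over these same animals, so that agreement was largely set in advance. Among the 8, the largest gap was that of Kcnk9, with a log2 fold change of 0.37 in batch A and 2.22 in batch B. Kcnk3 followed with 0.60 and 1.71. Kcnj10 had 0.96 and 1.85, Kcna3 2.05 and 2.57, and Kcng2 -1.46 and -0.46. Over the 86 members with a value in both batches, 31 were higher in both and 22 lower in both. No member passed the test of the difference between batches in edgeR (0% of genes called, smallest adjusted p = 0.168), while 19 members were under 0.05 before adjustment, against 10.4% of all genes. DESeq2 was not run for this difference.

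**Figure D4:**
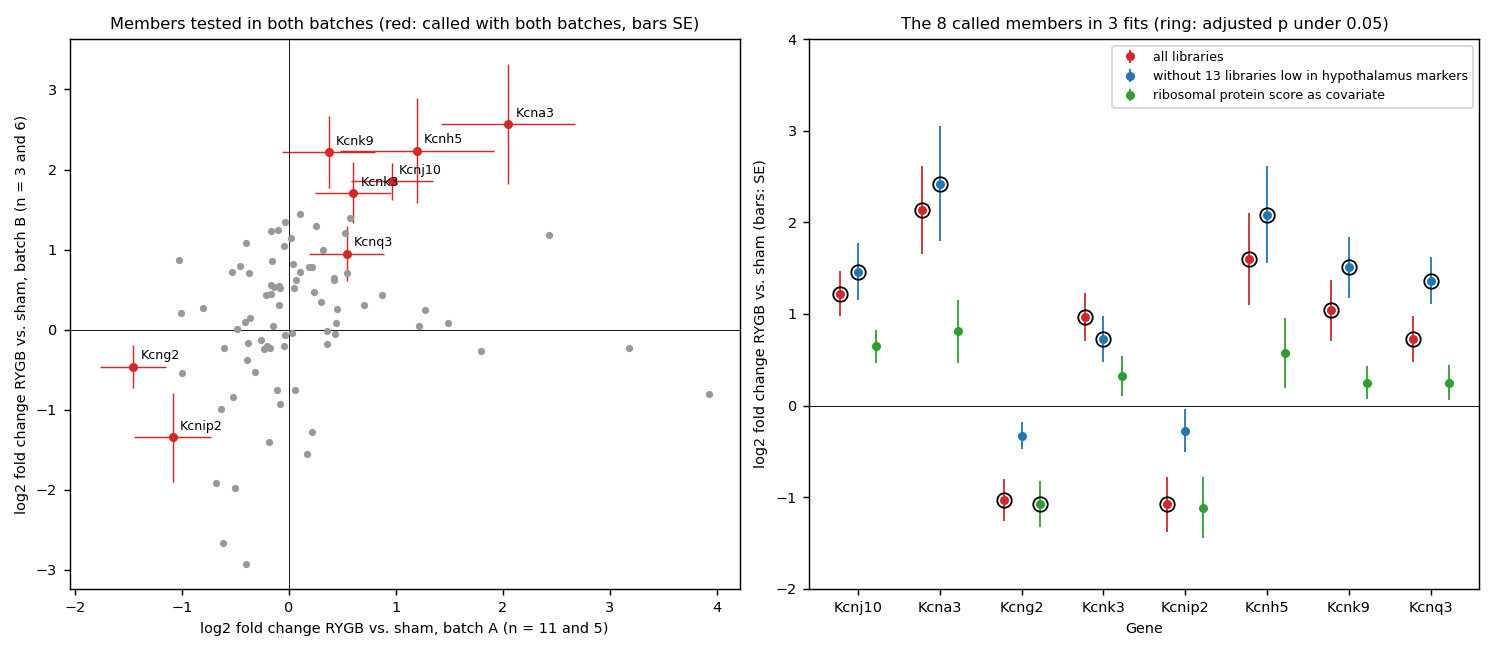
Left, log2 fold change of RYGB vs. sham within batch A (x axis) and batch B (y axis) for 86 members, with the 8 called members in red and bars of 1 SE. Right, the same 8 members fitted with all libraries (red), without the 13 libraries low in hypothalamus markers (blue) and with the ribosomal protein score as covariate (green); rings mark adjusted p under 0.05, and the green values of the 6 higher members lie nearer to 0.

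Saline-treated animals formed a second control group, without a sham operation but with a minipump implanted under the skin and daily injections. RYGB vs. saline gave 0 called members in edgeR (0.00457% of genes called) and 1 member under 0.05 before adjustment, and was not run in DESeq2. The 8 members had log2 fold changes of 0.39 for Kcnj10, 0.62 for Kcna3, 0.43 for Kcnk3, 0.11 for Kcnq3, -0.03 for Kcnk9, -0.23 for Kcnh5, -0.26 for Kcng2 and -0.21 for Kcnip2. Sham vs. saline, which shares its sham animals with the comparison above, also had 0 called members in edgeR and in DESeq2 (0.0137% of genes called in edgeR), and 11 members were under 0.05 before adjustment (12.9% of genes). Kcnh5 had the smallest p in sham vs. saline, with a log2 fold change of -1.83 (SE 0.56, adjusted p = 0.229), followed by Kcnj10 with -0.83 (adjusted p = 0.232) and Kcna3 with -1.51 (adjusted p = 0.245). Kcnj10 ran from 19.2 to 61.8 CPM in saline-treated animals with a median of 34.9, between the medians of sham (19.4) and RYGB (55.0). Without the 9 libraries highest in cortex, striatum or thalamus markers, 7 members were lower in sham than in saline (2.52% of genes called), namely Kcnq3, Kcnma1, Kcnk9, Kcnh5, Kcnj3, Kcnf1 and Kcnh7, and without the 13 low in hypothalamus markers none was (0.00911% of genes called). Without sham replicate 1, 2 were, with the share of all genes in that fit not reported here. With the ribosomal protein score as covariate, no member was called (0% of genes), and sham vs. saline had log2 fold changes of -1.20 for Kcnh5, -0.60 for Kcnk9 (-1.07 without the score), -0.38 for Kcnj10 and -0.61 for Kcna3.

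**Figure D5:**
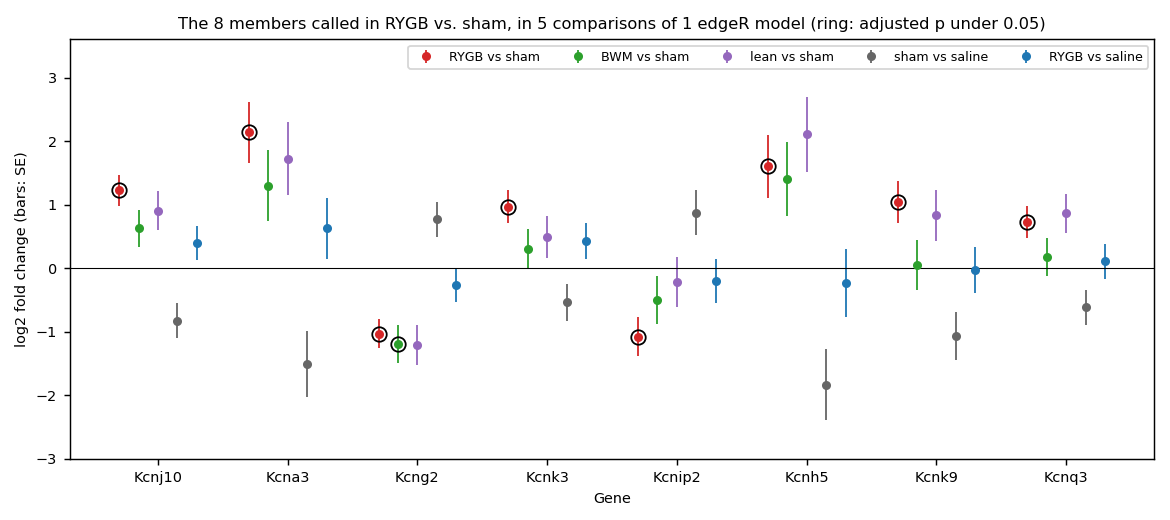
Log2 fold change with 1 SE of the 8 members called in RYGB vs. sham (red), and the same members in BWM vs. sham (green), lean vs. sham (purple), sham vs. saline (grey) and RYGB vs. saline (blue); rings mark adjusted p under 0.05. The comparisons share control animals, and RYGB vs. saline lies between -0.26 and 0.62.

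Members known for metabolic sensing did not pass in RYGB vs. sham. Kcnj11, the pore of the neuronal ATP-sensitive channel, had 10.6, 20.97 and 49.8 CPM after RYGB and 17.2, 24.4 and 38.4 CPM after sham. Its log2 fold change was -0.23 with a 95% interval from -0.62 to 0.15. The vascular pore Kcnj8 had 0.45 (adjusted p = 0.0573), and the sulfonylurea receptors Abcc8 and Abcc9 had -0.20 (adjusted p = 0.423) and 0.43 (adjusted p = 0.066). Kcnj11 was also within its spread in the other groups, with medians from 20.97 CPM after RYGB to 28.3 CPM after liraglutide, and its interval against saline ran from -0.78 to 0.39 for PYY3-36, from -0.41 to 0.67 for liraglutide and from -0.46 to 0.43 for both drugs. Kcnj13, which has been tied to melanocortin receptor signalling, had 3.73 CPM at the median after RYGB and 1.09 after sham, with a log2 fold change of 1.90 (adjusted p = 0.104). Over the 65 libraries Kcnj13 followed the meninges list (rho 0.79) and the pericyte and smooth muscle list (0.71) more closely than the choroid plexus list (0.60). Of 10 meninges markers none was called in edgeR, with a median log2 fold change of 1.35 and a median summed level of 382 CPM after RYGB and 139 CPM after sham. The pericyte and smooth muscle list had 2 of 10 markers called higher (median 0.61), with 437 and 179 CPM. The choroid plexus list also had 2 of 10 called higher (median 1.31), with 52.9 and 48.4 CPM. The part of these tissues in the Kcnj13 value was not tested.

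Of the remaining named members, several had small log2 fold changes with intervals that spanned both directions. Kcna6 had a log2 fold change of -0.04 (95% interval -0.29 to 0.21), Kcnd2 -0.05 (-0.40 to 0.30), Kcnc1 0.09 (-0.21 to 0.38), Kcnh2 0.11 (-0.19 to 0.41) and Kcnip1 0.04 (-0.39 to 0.47). Kcna2, a partner of Kcna1 in axons, had 0.43 (adjusted p = 0.0646), and Kcna1 had 0.65 (SE 0.32, adjusted p = 0.165). The G protein-gated subunits had 0.43 for Kcnj3, 0.02 for Kcnj6, 0.37 for Kcnj9 and 0.49 for Kcnj5, and none of the 4 passed. The beta subunits Kcnab1 and Kcnab2 had -0.93 (adjusted p = 0.107) and -0.37 (adjusted p = 0.21). By subfamily, 10 of 15 Kcnj members and 9 of 13 Kcnk members had a positive value, and 53 of all 88 members did, beside 47.9% of all genes. The share of all genes was not matched for exon length.

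BWM vs. sham asks which transcripts differ after weight loss by food restriction alone, and 1 member was called, against 0.32% of genes (12 members and 12.3% of genes were under 0.05 before adjustment). Kcng2 had 7.73, 11.7 and 15.1 CPM in BWM and 12.1, 15.9 and 115 CPM in sham, and all 7 BWM animals were below the sham median. The log2 fold change was -1.20 (SE 0.30, adjusted p = 0.0492). It was -0.39 without sham replicate 2, which had the 115 CPM, and -0.43 (adjusted p = 0.303, with 0.1% of genes called) without the 13 libraries. When each animal was left out, Kcng2 passed in 9 of 18 fits, so the call depended on more than 1 animal. With the ribosomal protein score as covariate Kcng2 was the 1 called member (-1.20, adjusted p = 0.0387, with 0.668% of genes called). The members with the next smallest p did not pass. Kcnh8, an ether-a-go-go-like channel, had 0.323, 0.981 and 14.4 CPM in BWM, a log2 fold change of 1.72 (adjusted p = 0.122), and 0.16 without BWM replicate 5. Kcnk15, a tandem-pore channel of very low level, had 0.0649, 0.315 and 2.23 CPM in BWM and 0, 0.0518 and 2.57 CPM in sham (2.67, adjusted p = 0.233).

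RYGB vs. BWM compares the operation with food restriction that followed a similar weight course. No member was called in edgeR or DESeq2 (0.343% of genes called in edgeR), and 12 were under 0.05 before adjustment (12.6% of genes). The smallest p was that of Kcnn4, a calcium-activated channel known from blood cells and epithelia, with 0.112, 0.697 and 3.31 CPM after RYGB and 1.04, 2.24 and 2.85 CPM in BWM. Of the 14 RYGB-treated animals 11 were below every BWM animal and 1, replicate 3, was above all of them. The log2 fold change was -1.06 (SE 0.31, adjusted p = 0.156), and without RYGB replicate 3 it passed (adjusted p = 0.0106). Kcnj14, an inward rectifier of motor neurons, had 12.7, 18.4 and 23.6 CPM after RYGB and 19.1, 24.5 and 27.6 CPM in BWM (-0.33, SE 0.11, adjusted p = 0.227). Kcnh8 had -1.27 (adjusted p = 0.291), and the sign turned without BWM replicate 5. Without the 13 libraries low in hypothalamus markers, 1 member was called (0.574% of genes), and with the ribosomal protein score as covariate no member was called (0.0686% of genes), with -1.98 for Kcnh8. Of the 8 members called against sham, Kcnk9 had the largest value here with 0.99 (95% interval 0.22 to 1.75, adjusted p = 0.313). The others were 0.84 for Kcna3 (-0.16 to 1.84), 0.67 for Kcnk3 (0.07 to 1.26), 0.60 for Kcnj10 (0.04 to 1.16), 0.55 for Kcnq3 (SE 0.28), 0.20 for Kcnh5, 0.17 for Kcng2 and -0.58 for Kcnip2 (-1.24 to 0.08).

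Lean vs. sham gave 0 called members in edgeR (0% of genes called, 13 members and 12.2% of genes under 0.05 before adjustment) and 1 in DESeq2. The share of all genes called in DESeq2 is not reported here. Kcng2 had 9.56, 11.6 and 12.3 CPM in lean animals, 5 of the 6 below every sham-treated animal, with a log2 fold change of -1.21 (adjusted p = 0.151). Kcnh5 had 0.275, 3.52 and 4.88 CPM (2.11, adjusted p = 0.185) and Kcna3 0.55, 3.50 and 5.20 CPM (1.72, adjusted p = 0.248), and for both 4 of 6 lean animals were above the highest sham-treated animal. Without the 13 libraries Kcnq3 (1.39, adjusted p = 0.0389), Kcnh5 (2.65, adjusted p = 0.042) and Kcnma1 (1.33, adjusted p = 0.0474) were higher in lean animals. In that setting 0.925% of genes were called, 0.848% higher. Without the 9 libraries highest in other brain regions 9 members were higher in lean animals (3.87% of genes called, 3.25% higher). With the ribosomal protein score as covariate no member was called (0% of genes), and the log2 fold change was 0.86 for Kcnh5, 0.23 for Kcna3, 0.23 for Kcnq3 and 0.07 for Kcnma1 (adjusted p from 0.996 to 0.998). The median score of lean animals, 7.46, was the lowest of the 8 groups. All lean animals were in batch A, and they share the sham animals with the comparisons above.

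The hormone treatments were compared with saline. PYY3-36, a gut hormone that reduces food intake through the Y2 receptor, gave 0 called members in edgeR (0% of genes) and in DESeq2, with 7 under 0.05 before adjustment (7.54% of genes). Kcnip4, a modulator of A-type channels, had 69.8, 52.0, 73.9 and 102 CPM in the 4 treated animals and 53.4, 99.8 and 166 CPM (lowest, median and highest) in saline, a log2 fold change of -0.57 (adjusted p = 0.652). Kcnrg had 2.14, 2.99, 1.15 and 2.08 CPM, with 3 of 4 above the highest saline-treated animal at 1.64 CPM (0.91, adjusted p = 0.652). Kcna1 had 5.52, 17.8, 10.9 and 10.7 CPM, against 3.77 to 11.2 CPM in saline (1.14, adjusted p = 0.652). The groups overlapped for all 3 genes.

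Liraglutide, an agonist of the GLP-1 receptor, gave 0 called members in edgeR (0% of genes) and DESeq2 and 0 under 0.05 before adjustment (2.08% of genes). The smallest p was that of Kcne3, an accessory subunit, with 0.161, 0, 0, 0.0989 and 0 CPM in the 5 treated animals and up to 0.433 CPM in saline, levels at or near the limit of detection. Kcnrg had 1.004, 1.25, 1.73, 1.09 and 2.86 CPM (log2 fold change 0.52, 95% interval -0.16 to 1.19). Kcnmb4 had 18.3, 21.9, 29.6, 33.4 and 27.2 CPM and 16.03, 32.2 and 55.8 CPM in saline (-0.45, -1.14 to 0.24). PYY3-36 + liraglutide gave 0 called members in edgeR (0.00457% of genes) and DESeq2 and 1 under 0.05 before adjustment (2.53% of genes), the silent subunit Kcng3 with 0, 0.355 and 0.662 CPM against 0, 0.0733 and 0.307 CPM in saline (1.49, adjusted p = 0.9998). Kcnj2, a classical inward rectifier, had 13.7, 18.2 and 30.1 CPM against 8.63, 12.8 and 26.3 CPM (0.51, adjusted p = 0.9998), and Kcnmb4 14.9, 22.6 and 30.2 CPM (-0.54, adjusted p = 0.9998). The 3 treatments share their saline animals, and without the 13 libraries low in hypothalamus markers they still gave 0 called members (0%, 0% and 0.00456% of genes). Kcnj10 had values of 0.71 (SE 0.36, 95% interval up to 1.42) for PYY3-36, 0.35 (95% interval -0.33 to 1.02) for liraglutide and 0.23 (-0.32 to 0.78) for both. Against the same saline animals RYGB had 0.39 for Kcnj10, a value inside all 3 intervals.

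Between the experimental periods, 22 of 88 members differed in the same model, against 40.7% of all genes. Of these, 20 were lower in batch B (21.4% of genes lower) and 2 higher (19.3% higher). The smallest p values included those of Kcnk4, a mechanosensitive background channel (-1.03, SE 0.20), and Kcnj14 (-0.40, SE 0.08). The 2 higher members were Kcnip4 (0.37) and Kcna6 (0.25). Of the 8 members called in RYGB vs. sham, 5 were also lower in batch B: Kcna3 (-1.21), Kcnk9 (-1.09), Kcnh5 (-0.94), Kcnk3 (-0.62) and Kcnq3 (-0.54). Without a term for the batch, 14 members were called in RYGB vs. sham. The share of all genes called in that fit is not reported here, so the count is no result about the members alone.

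Genes that work with potassium channels but lack a Kcn symbol were followed on lists chosen by function. None of 2 sulfonylurea receptors, 10 auxiliary subunits, 4 hyperpolarization-activated channels and 10 potassium pumps or cotransporters was called in any of the 8 comparisons between groups. In RYGB vs. sham the pacemaker channel Hcn4 had a log2 fold change of 0.95 (SE 0.37, adjusted p = 0.0703) and the cotransporter Slc12a7 0.83 (SE 0.33, adjusted p = 0.0794). Between batches, among others, Abcc8 (-0.72), Abcc9 (-0.36), Hcn2 (-0.35) and Hcn3 (-0.46) were lower in batch B and Dpp10 (0.39) and Slc12a2 (0.35) higher.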

How the data were processed

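RNA-seq of hypothalamus was analysed for 65 libraries, grouped by the labels. The authors trimmed reads with cutadapt (1.16 in the submitters' processing notes, while the methods also name later versions), mapped them with STAR 2.7.2b to Rnor_6.0 (RefSeq) and counted exons with featureCounts 1.6.4 on the reverse strand. Multi-mapped and overlapping reads were counted in fractions, so the deposited values are estimated counts, of which 30.3% of the nonzero ones were not whole (tolerance 1e-06). Such splitting can move reads between related channel genes. Counts were rounded, filtered with filterByExpr (minimum count 10, minimum total 15) and scaled by TMM. The robust quasi-likelihood test of edgeR 4.0.16 in R 4.3.3 was fitted with group and batch over all libraries and tested on simulated data, with Benjamini-Hochberg adjustment over 21871 genes. No depth or purity filter was set on libraries.

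Levels are TMM-scaled CPM, and 95% intervals are those of the fitted log2 fold change. Alternatives were DESeq2 1.42.0 with and without betaPrior, other scaling, no filter, no batch term, only the compared groups, each batch alone, saline as control, marker scores, gene length, a replicate block and leaving out each animal. After the data were seen, 3 more were added: without 13 libraries low in hypothalamus markers, without 9 highest in other regions, and with a ribosomal protein score.

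Named were, per comparison, members with adjusted p under 0.05 or else the 3 with the smallest p, the highest member of each subfamily per exon length, a list of 36 members chosen by function, and the 3 with the smallest p between batches. The values of some of these genes are not reported here. Members and lists were chosen with earlier results of these data known. Python 3.11.15 was used for tables and figures.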

Additional observations from a re-analysis of the deposited data

Results flagged for a closer look

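Among the members named in the report, 27 combinations of a gene and a group of 4 to 10 animals were checked for a library far from the others of its group, and 1 was. Kcnh8 had 14.4 CPM in BWM replicate 5, while the next highest of the 7 BWM libraries had 1.83 CPM, a gap of 0.89 of the group's range. The limit of this check is one that chance passes in about 1 in 20 groups. The same library ranked first of 65 for anterior pituitary markers, whose summed level reached 78086 CPM there and 97.6 CPM at the BWM median. The part of pituitary RNA in the Kcnh8 value was not tested.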

How the results depend on the processing

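In RYGB vs. sham, 8 members were called, and the count stayed within 1.5 times that number with DESeq2 (11, with or without betaPrior), with DESeq2's size factors in edgeR (8), without the filter (8), with only both groups in the fit (8), within batch B (10), with pituitary, choroid plexus and meninges scores (11), with a correction for gene length (8) and without the 13 or the 9 libraries (12 each). It moved to 0 with saline as control, 2 within batch A, 1 with the ribosomal protein score, 13 with thalamus, striatum and cortex scores and 14 without a batch term. All counts in this section are of members only, and the number of all genes called moved between settings as well. Without the filter, 1380 of 33452 genes were higher and 841 lower, against 1425 and 1428 of 21871 in the main fit. Leaving out each animal gave 5 to 12 calls, with 5 without RYGB replicate 13, sham replicate 2 or sham replicate 5. Kcnj10, Kcna3 and Kcnk3 passed in all 25 of these fits, Kcng2 and Kcnip2 in 24, Kcnh5 in 22, Kcnk9 in 19 and Kcnq3 in 13. With saline as control the log2 fold change turned to -0.23 for Kcnh5 and -0.033 for Kcnk9.

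In BWM vs. sham, the 1 call became 0 with saline as control, without the filter, with either set of marker scores and without the 13 or the 9 libraries. It became 2 with only both groups in the fit, within batch A and with betaPrior, and 9 without a batch term. Leaving out each animal gave 0 to 3, with 3 without BWM replicate 1 and 0 without BWM replicates 3, 4, 5, 6 or 7 or sham replicates 2, 5, 7 or 8. RYGB vs. BWM had 1 call without the 13 libraries and 0 to 1 when each animal was left out, with 1 without RYGB replicate 3. There Kcnh8 ran from -1.47 to 0.29 when each animal was left out, and turned to 0.29 without BWM replicate 5. Lean vs. sham had 7 calls without a batch term, 9 without the 9 libraries, 3 without the 13, 1 with DESeq2, 4 with betaPrior, and 0 to 7 when each animal was left out, with 7 without lean replicate 6 and 3 without sham replicate 1. Sham vs. saline had 7 without the 9 libraries and 0 to 2 when each animal was left out, with 2 without sham replicate 1. The hormone treatments had 0 calls under each alternative that was run. In PYY3-36 + liraglutide vs. saline, Kcnmb4 turned to 0.30 within batch A. The causes of these moves were not tested.

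Replicate numbers were shared between groups and were not taken as pairs. Same-numbered libraries of different groups correlated over 0.1 in 52 of 171 pairs, with a median of 0.00056. Differently numbered ones did so in 399 of 1638 pairs, with a median of -0.0044. Pairing within some of the groups was not tested. With the replicate block, 4 members were called in RYGB vs. sham, 0 in BWM vs. sham and 0 in the other comparisons between groups. The shares of all genes called in that fit are not reported here.

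The treated groups in 1 batch, 4 to 14 animals per group and an uneven share of libraries low in hypothalamus markers (4 of 11 sham, 0 of 14 RYGB) limit these results. Members with a mean of 0.150 CPM or less, such as Kcne3 (0.142 CPM), were near the limit that 0 counts allow.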
